A study of Mus musculus with 8 samples.

Results

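The 10 genes described here mark spermatogonia, the mitotic germ cells at the base of the seminiferous tubule from which sperm arise. They were chosen by name and matched by Ensembl identifier to the rows of 8 mouse testis RNA-seq libraries. All 10 have a row among the 55421 gene identifiers of each library. The genes are Gfra1, Zbtb16, Id4, Nanos2, Nanos3, Lin28a, Sall4, Dmrt1, Kit and Stra8.

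The libraries came from testes of wild-type male mice, 2 libraries in each of 4 groups. The LPS+DHEA+Nb group was injected with lipopolysaccharide (LPS) and, 6 h later, with dehydroepiandrosterone (DHEA) together with Nb23-bi, whose nature the labels do not give. The LPS+DHEA group received LPS and, 6 h later, DHEA alone. The LPS group received LPS only, and the CTRL group received phosphate-buffered saline. LPS, from the outer membrane of Gram-negative bacteria, triggers inflammation, and DHEA is a precursor of androgens. The injections were intraperitoneal, and a second injection is named only for the 2 groups with DHEA, so the effects of DHEA and of a further injection cannot be told apart. The labels give no strain, age, dose or collection time. They also do not say that libraries of 1 group are separate mice, so every p-value measures the spread between libraries only.

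Spermatogonia fall into an undifferentiated pool, which holds the stem cells, and a differentiating pool, which is committed to meiosis. The stem cell state depends on GDNF, a factor from Sertoli and peritubular cells that signals through the receptor pair GFRA1 and RET. Retinoic acid then switches the cells to differentiation, which brings up the receptor tyrosine kinase KIT and, at the entry to meiosis, STRA8. In adult testis spermatogonia are a small share of the cells, beside many spermatocytes and spermatids.

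Sequences upstream of the genes at the retinoic acid switch are shown first. RefSeq (GRCm38.p6) promoter windows of 300 bases, from 250 before to 50 after the annotated start, were found for 7 of the 10 genes. Windows for Stra8, Kit and Nanos2 are printed because these genes stand on either side of the switch: Stra8 and Kit in differentiating cells, Nanos2 in cells kept from it. The window of Stra8 is chr6:34920698-34920997 (plus strand), that of Kit chr5:75574737-75575036 (plus strand) and that of Nanos2 chr7:18987274-18987573 (plus strand). Capitals mark matches to AGGTCA, the half-site of retinoic acid receptors, and to ACAATGT, a core of the DMRT1 motif, searched on both strands.
Stra8: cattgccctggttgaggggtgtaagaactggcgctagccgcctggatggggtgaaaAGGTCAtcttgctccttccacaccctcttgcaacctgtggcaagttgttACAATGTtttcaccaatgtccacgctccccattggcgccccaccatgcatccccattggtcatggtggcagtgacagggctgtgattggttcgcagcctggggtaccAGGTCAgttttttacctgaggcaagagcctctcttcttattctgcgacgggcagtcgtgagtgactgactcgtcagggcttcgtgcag
Kit: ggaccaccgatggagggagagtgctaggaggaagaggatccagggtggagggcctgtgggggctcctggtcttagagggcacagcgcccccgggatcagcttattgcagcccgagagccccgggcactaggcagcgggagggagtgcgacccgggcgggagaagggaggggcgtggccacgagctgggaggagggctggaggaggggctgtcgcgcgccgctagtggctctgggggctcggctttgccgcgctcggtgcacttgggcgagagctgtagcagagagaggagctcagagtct
Nanos2: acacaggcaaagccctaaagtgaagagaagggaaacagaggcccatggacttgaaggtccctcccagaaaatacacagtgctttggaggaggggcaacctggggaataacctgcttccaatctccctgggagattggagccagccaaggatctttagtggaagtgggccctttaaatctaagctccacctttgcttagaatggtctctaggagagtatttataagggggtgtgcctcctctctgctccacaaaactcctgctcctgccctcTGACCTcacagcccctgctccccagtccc

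The Stra8 window held 2 matches to AGGTCA on the plus strand, at bases 57 to 62 and 213 to 218 counted from its first base, and 1 match to ACAATGT at bases 106 to 112. The Nanos2 window held 1 match to AGGTCA on the opposite strand, at bases 272 to 277. Neither set of letters occurred in the windows of Kit, Gfra1, Id4, Nanos3 and Lin28a, so 2 of the 7 genes with a window held AGGTCA and 1 of 7 held ACAATGT. Over all 32851 promoter windows, 16.3% held AGGTCA and 2.96% held ACAATGT. These matches are a description of the letters and not of binding. The 2 motifs do not overlap in the Stra8 window.

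Levels are given as CPM, the deposited count of a gene per M counts of the adjusted total of its library. Library totals lay between 61.3 and 64.5 M counts, and 30142 to 30626 genes had a count. The tissue label was checked because the extraction text speaks of islets. The islet hormone genes Ins1, Sst and Iapp had 0 counts in every library, and Ins2 and Gcg had at most 10 and 4 counts. Germ cell markers were abundant, with 9 spermatid genes summing to 16165.7 CPM or more in every library. The correlation between libraries was 0.9695 to 0.9711 inside a group and 0.9662 to 0.9713 across groups, ranges that overlap. The acute phase genes Saa3, Lcn2, Cp, Lrg1, Serpina3n and Timp1, a gauge of the LPS response, summed to 152.6 to 203.9 CPM in LPS+DHEA+Nb, 429.2 to 458.9 in LPS+DHEA, 601.9 to 646.0 in LPS and 146.0 to 148.4 in CTRL, and all 6 rose in LPS versus CTRL by the edgeR test used throughout (adjusted p under 0.05).

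The 10 genes together held 85.7 and 92.4 CPM in the LPS+DHEA+Nb libraries, 108.5 and 103.7 in LPS+DHEA, 101.5 and 108.3 in LPS, and 100.8 and 97.2 in CTRL. The LPS+DHEA+Nb libraries were the lowest of the 4 groups by this sum. Most of it came from Id4, Kit and Dmrt1, with means of 34.7, 19.5 and 19.0 CPM over the 8 libraries. Kit and Dmrt1 are also made by somatic cells. Gfra1 was low in replicate 1 of LPS+DHEA+Nb (1.43 CPM against 8.69 in replicate 2) and of LPS (1.24 against 9.42). In whole-testis RNA, fewer cells of a type and less RNA per cell cannot be told apart.

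Per kb of exon, Id4 was the most abundant at 9.01 CPM per kb over the 8 libraries, followed by Dmrt1 at 7.34, Stra8 at 5.09, Kit at 2.19 and Gfra1 at 1.30. Lin28a had 0.840, Zbtb16 0.739, Sall4 0.462, Nanos3 0.346 and Nanos2 0.0746 CPM per kb. The library ranges of Id4 (7.98 to 9.73) and Dmrt1 (5.96 to 9.68) overlapped, as did those of Dmrt1 and Stra8 (3.98 to 6.52). Stra8 lay above Kit (1.99 to 2.61) in every library, and Kit lay above Gfra1 (0.227 to 1.91). From Gfra1 downwards, each gene's range overlapped that of the next gene in the order.

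**Figure D1:**
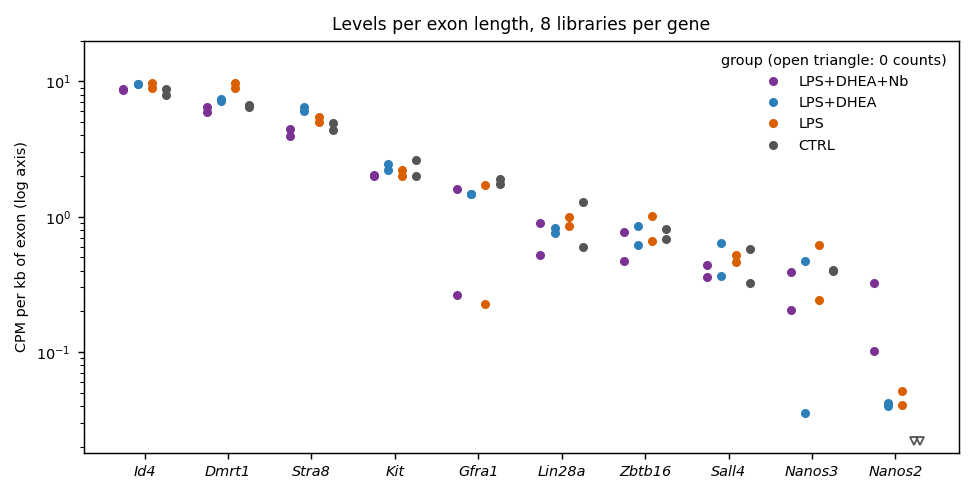
Level per kb of exon (CPM per kb, log axis) of the 10 genes, with 1 point per library coloured by group and open triangles at the base for libraries with 0 counts. Id4, Dmrt1 and Stra8 lie highest, 2 Gfra1 points sit far below the other 6, and Nanos2 has 0 counts in both CTRL libraries.

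Differences between groups were tested gene by gene with edgeR's quasi-likelihood test in a single fit of all 8 libraries, with Benjamini-Hochberg adjustment over the 26414 genes tested. Genes with an adjusted p under 0.05 were called. Of the 10 genes, 9 had enough counts to be tested and Nanos2 did not. None of the 9 was called in any of the 4 comparisons or in the test for any difference between the 4 groups. The background was low as well, since 0.295% of all genes were called in LPS versus CTRL, 0.0189% in LPS+DHEA versus LPS, 0.17% in LPS+DHEA+Nb versus LPS, 0.0871% in LPS+DHEA+Nb versus LPS+DHEA and 0.239% in the test over 4 groups. At an unadjusted p under 0.05, 1 of the 9 passed in LPS versus CTRL (7.11% of all genes), 1 in LPS+DHEA versus LPS (3.51%), 1 in LPS+DHEA+Nb versus LPS (6.56%), 1 in LPS+DHEA+Nb versus LPS+DHEA (4.4%) and 2 in the test over 4 groups (5.4%). With DESeq2 in place of edgeR, 1 of the 9, Dmrt1, was called in LPS versus CTRL, in LPS+DHEA+Nb versus LPS and in the test over 4 groups. DESeq2 also called more of all genes, 283 in LPS versus CTRL against 78 with edgeR, and more in each other test. The edgeR shares above are therefore not the background of the DESeq2 calls.

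**Figure D2:**
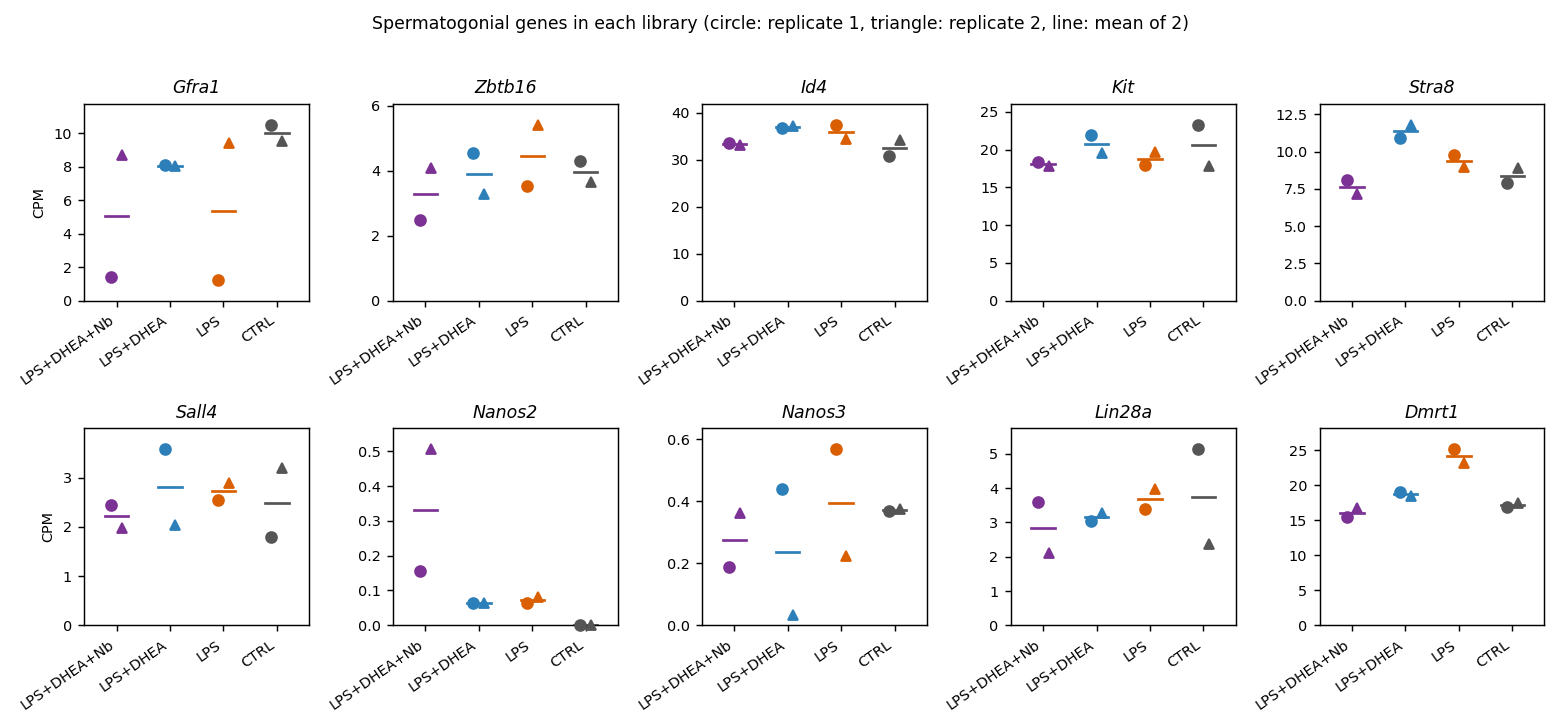
CPM of each gene in each library, on linear axes that start at 0 and differ between genes, with circles for replicate 1, triangles for replicate 2 and a line at the mean of each group. Both LPS libraries lie above the other 6 for Dmrt1, both LPS+DHEA libraries lie above the other 6 for Stra8, and replicate 1 of LPS+DHEA+Nb and of LPS lies near 1 CPM for Gfra1. Shares of all genes with such orders were not computed.

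Dmrt1, a transcription factor that keeps spermatogonia in mitosis and holds back Stra8, had the smallest p of the 9 genes in the test over 4 groups. It lies at chr19:25505618-25604329 of GRCm38 (plus strand) and no other annotated gene overlaps it. Dmrt1 had 15.5 and 16.7 CPM in LPS+DHEA+Nb, 19.1 and 18.4 in LPS+DHEA, 25.1 and 23.2 in LPS, and 16.9 and 17.4 in CTRL. Both LPS libraries lay above the 6 others, and both LPS+DHEA libraries lay between those of LPS and those of CTRL. The share of all genes with both libraries of a group above the 6 others was not computed.

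In LPS versus CTRL the log2 fold change of Dmrt1 was 0.50 (SE 0.11, 95% interval 0.26 to 0.74, adjusted p = 0.136), with group means of 24.2 ± 1.32 CPM in LPS and 17.1 ± 0.368 in CTRL (SD, n = 2). It stood at rank 161 of the 26414 genes by p. Between LPS+DHEA+Nb and LPS it was -0.59 (SE 0.11, 95% interval -0.83 to -0.35, adjusted p = 0.0866), at rank 68. Between LPS+DHEA and LPS it was -0.36 (SE 0.11, 95% interval -0.60 to -0.13, adjusted p = 1). The 3 comparisons share the LPS libraries, so they are not independent of each other. DESeq2 called Dmrt1 in LPS versus CTRL (log2 fold change 0.49, adjusted p = 0.0286) and in LPS+DHEA+Nb versus LPS (-0.59, adjusted p = 0.00372). Over the 14 alternative settings its adjusted p ran from 0.0286 to 0.487 in LPS versus CTRL and from 0.00372 to 0.619 in LPS+DHEA+Nb versus LPS.

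Dmrt1 is also made by Sertoli cells, the somatic nurse cells of the tubule. The 15 Sertoli markers had a sum of 1139.3 to 1287.1 CPM in LPS+DHEA+Nb, 1352.2 to 1453.4 in LPS+DHEA, 1381.7 to 1445.9 in LPS, and 1162.4 to 1168.6 in CTRL. Clu, a secreted chaperone, made up most of that sum and most of its difference between LPS and CTRL. It averaged 879.8 ± 14.6 CPM for LPS, 648.2 ± 8.86 for CTRL (SD, n = 2; log2 fold change 0.44, adjusted p = 0.141). Amhr2, the next marker by level, averaged 177.0 CPM for LPS and 175.4 for CTRL (log2 fold change 0.01). None of the 15 markers was called. In LPS versus CTRL 10 of them had a positive fold change (median 0.11), against 49.6% of all genes. In LPS+DHEA+Nb versus LPS 13 had a negative one (median -0.14), against 49.5% of all genes. The part of Sertoli cells in the Dmrt1 levels was not tested.

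Stra8, which retinoic acid induces in germ cells about to enter meiosis, was highest in LPS+DHEA. It lies at chr6:34920163-34939344 (plus strand). Stra8 had 8.06 and 7.18 CPM in LPS+DHEA+Nb, 10.9 and 11.8 in LPS+DHEA, 9.78 and 8.99 in LPS, and 7.86 and 8.88 in CTRL. Both LPS+DHEA libraries lay above the other 6, an order whose share over all genes was not computed. LPS+DHEA+Nb and CTRL overlapped.

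The log2 fold change of Stra8 in LPS+DHEA+Nb versus LPS+DHEA was -0.57 (SE 0.15, 95% interval -0.90 to -0.24, adjusted p = 0.558), with means of 7.62 ± 0.623 CPM in LPS+DHEA+Nb and 11.3 ± 0.592 in LPS+DHEA (SD, n = 2). It stood at rank 135 of 26414 by p. The other comparisons gave 0.27 in LPS+DHEA versus LPS (95% interval -0.06 to 0.60), -0.30 in LPS+DHEA+Nb versus LPS (-0.63 to 0.03) and 0.16 in LPS versus CTRL (-0.16 to 0.49). None passed, and no alternative setting called Stra8 in any comparison.

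Kit, the receptor for stem cell factor and a marker of differentiating spermatogonia, had 18.3 and 17.8 CPM in LPS+DHEA+Nb, 21.9 and 19.6 in LPS+DHEA, 17.9 and 19.7 in LPS, and 23.3 and 17.8 in CTRL. It lies at chr5:75574916-75656722 (plus strand). The 2 CTRL libraries alone covered, to within rounding, the values of all the others. Its log2 fold changes ran from -0.20 in LPS+DHEA+Nb versus LPS+DHEA (95% interval -0.51 to 0.10) to 0.15 in LPS+DHEA versus LPS (-0.16 to 0.45), and it was -0.13 in LPS versus CTRL (-0.44 to 0.18).

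Kit is also expressed by Leydig cells, which make androgens, and by mast cells. The 8 Leydig markers had a sum of 835.8 to 956.9 CPM in LPS+DHEA+Nb, 638.3 to 658.1 in LPS+DHEA, 708.1 to 738.1 in LPS, and 881.6 to 1034.6 in CTRL. Their median log2 fold change was -0.88 in LPS versus CTRL, and none of the 8 was called. The Kit mean was 20.8 ± 1.60 CPM in LPS+DHEA and 20.5 ± 3.91 in CTRL (SD, n = 2), which is close to a tie. Of 9 mast cell markers, 4 had 0 counts in every library, among them Fcer1a and Ms4a2, and Cpa3 had at most 27 counts. Hdc, the histamine-forming enzyme and the most abundant of the 9, had 23.9 and 22.7 CPM in LPS+DHEA+Nb, 26.7 and 28.2 in LPS+DHEA, 23.9 and 25.2 in LPS, and 20.4 and 23.9 in CTRL. Hdc was highest in LPS+DHEA and was not called (adjusted p = 1 over the 4 groups). The mast cell markers did not share this order. Of the 3 tested, Hdc had a log2 fold change of 0.16 in LPS+DHEA versus LPS. The other 2, Cpa3 included (-0.92), had a negative one. The part of these cells in the Kit level was not tested.

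Among the genes of the undifferentiated pool, Id4 varied least. Id4 encodes an inhibitor of basic helix-loop-helix factors and marks the cells with the highest stem cell activity. It had 33.6 and 33.0 CPM in LPS+DHEA+Nb, 36.8 and 37.2 in LPS+DHEA, 37.4 and 34.4 in LPS, and 30.7 and 34.1 in CTRL. Its log2 fold changes lay between -0.15 and 0.15, and the 95% intervals of the 4 comparisons lay between -0.36 and 0.36. Differences beyond this size are outside the intervals. Id4 (chr13:48261228-48266026, plus strand) overlaps the minus-strand genes A330033J07Rik and Gm49291, which held at most 65 and 40 counts against 1922 to 2378 for Id4. Gm49291 had 39 and 0 counts in LPS+DHEA+Nb, 25 and 0 in LPS+DHEA, 33 and 0 in LPS, and 40 and 0 in CTRL. It was thus counted in replicate 1 libraries only.

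Gfra1, the GDNF co-receptor of the stem cell pool, fell into separate levels that did not follow the groups. It lies at chr19:58235604-58455909 (minus strand). Gfra1 had 91 and 551 counts in LPS+DHEA+Nb, 516 and 492 in LPS+DHEA, 79 and 589 in LPS, and 655 and 611 in CTRL. This was 1.43 and 8.69 CPM in LPS+DHEA+Nb, 8.07 and 8.05 in LPS+DHEA, 1.24 and 9.42 in LPS, and 10.5 and 9.55 in CTRL.

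Replicate 1 of LPS+DHEA+Nb and replicate 1 of LPS thus held far less Gfra1 than the other 6 libraries, by 6.07 times and 7.57 times against the other library of their own group. A ratio over 5 within 2 or more groups occurred in 75 of the 18407 genes with a mean of at least 1 CPM (0.407%). The same LPS library held the highest Id4 and Dmrt1 levels of all 8 libraries, while Zbtb16 was lower in replicate 1 than in replicate 2 of both groups. The antisense gene that overlaps Gfra1, Gm16277, had 0 counts in every library. Ret, the signalling partner of GFRA1, had 80 and 62 counts in LPS+DHEA+Nb and 67 and 66 in LPS. Ret was thus not low in replicate 1 of either group. Etv5, another gene of undifferentiated spermatogonia, had 20.8 and 26.7 CPM in LPS+DHEA+Nb and 20.2 and 28.4 in LPS. Its lowest values of the 8 libraries were in replicate 1 of these groups.

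The intervals of the Gfra1 fold changes were wide. LPS versus CTRL gave -0.91 (SE 1.22, 95% interval -4.23 to 2.41, adjusted p = 0.949), and LPS+DHEA+Nb versus LPS gave -0.07 (-3.40 to 3.25). The LPS versus CTRL value was -0.09 without LPS replicate 1 and -3.00 without LPS replicate 2. The LPS+DHEA versus LPS value, 0.60 with all libraries, was -0.23 and 2.69 under the same omissions, and that of LPS+DHEA+Nb versus LPS ran from -1.89 to 2.02 over the alternatives. These libraries therefore give no direction for Gfra1 between groups.

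Zbtb16, Sall4 and Lin28a, regulators of the undifferentiated pool, were detected at low levels with broad spread. ZBTB16 (also called PLZF) is a transcriptional repressor needed for stem cell maintenance, SALL4 is a zinc finger factor that binds with it, and LIN28A is an RNA-binding protein that blocks let-7 maturation. Zbtb16 had 2.49 and 4.07 CPM in LPS+DHEA+Nb, 4.54 and 3.27 in LPS+DHEA, 3.51 and 5.41 in LPS, and 4.30 and 3.64 in CTRL.

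The groups overlapped for Zbtb16 in every comparison. Sall4 had 2.45 and 1.97 CPM in LPS+DHEA+Nb, 3.57 and 2.03 in LPS+DHEA, 2.55 and 2.89 in LPS, and 1.79 and 3.19 in CTRL. Lin28a had 3.59 and 2.10 CPM in LPS+DHEA+Nb, 3.04 and 3.27 in LPS+DHEA, 3.39 and 3.98 in LPS, and 5.13 and 2.38 in CTRL. Within CTRL alone, the libraries differed by 1.78 times for Sall4 and 2.16 times for Lin28a. The 95% intervals of these 3 genes reached from -1.18 to 0.89 over the 4 comparisons, so differences inside that span were not resolved.

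Nanos3 and Nanos2, RNA-binding proteins that protect germ cells and hold back differentiation, lay near the limit of detection. Nanos3 had 12 and 23 counts in LPS+DHEA+Nb, 28 and 2 in LPS+DHEA, 36 and 14 in LPS, and 23 and 24 in CTRL. All its groups overlapped. Nanos2 had 10 and 32 counts in LPS+DHEA+Nb, 4 and 4 in LPS+DHEA, 4 and 5 in LPS, and 0 and 0 in CTRL. It was highest in both LPS+DHEA+Nb libraries, and a count of 0 in CTRL allows a level of up to 0.0479 CPM (3 counts, counting error only). This bound takes each count as a separate fragment and would be higher were each fragment counted 4 times.

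Among low values of these files multiples of 4 are frequent, at 33.5% of values from 1 to 40 against 25% if they were even. Without a filter on low counts, Nanos2 was fitted among 38350 genes and was not called, with adjusted p = 0.825 in LPS versus CTRL and adjusted p = 0.961 in LPS+DHEA+Nb versus LPS. The antisense gene Gm45058, which overlaps Nanos2, had 0 and 9 counts in LPS+DHEA+Nb, 0 and 4 in LPS+DHEA, 0 and 5 in LPS, and 0 and 0 in CTRL. No source used here gives the strand setting of the counting, so reads of the pair cannot be told apart.

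**Figure D3:**
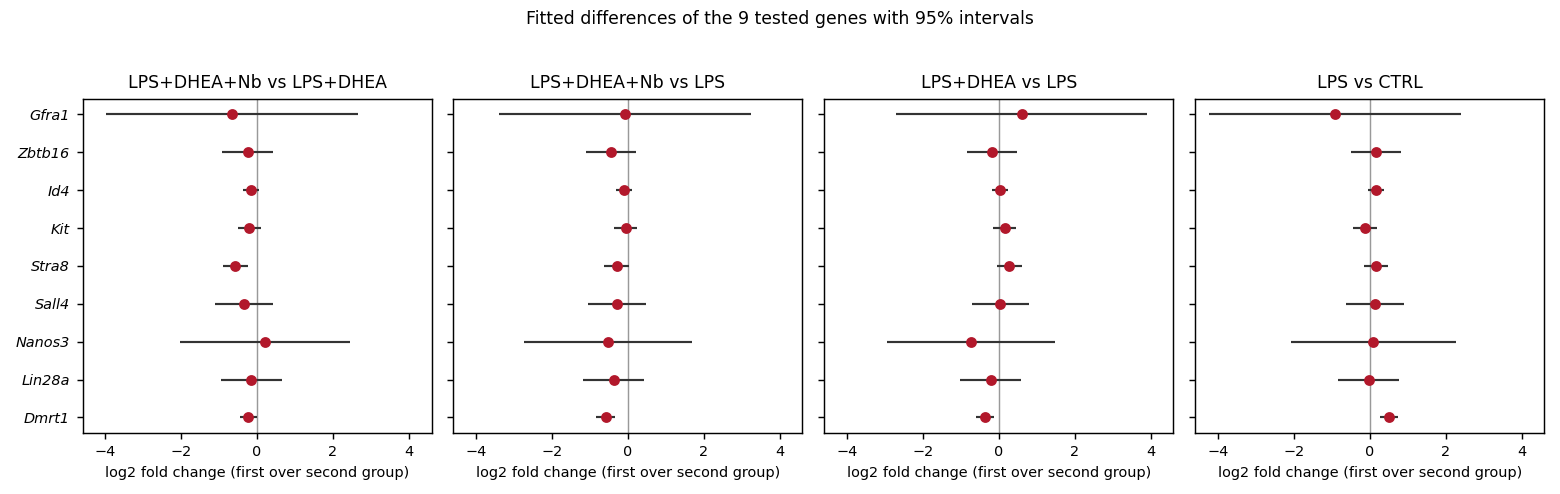
Fitted log2 fold change (point) with its 95% interval (line) of the 9 tested genes in 4 comparisons, each the first named group over the second. The interval of Dmrt1 lies above 0 in LPS versus CTRL and below 0 in LPS+DHEA+Nb versus LPS and in LPS+DHEA versus LPS, that of Stra8 lies below 0 in LPS+DHEA+Nb versus LPS+DHEA, and those of Gfra1 and Nanos3 are the widest.

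Most of the 9 tested genes had lower fitted levels in LPS+DHEA+Nb than in LPS or LPS+DHEA, and none was called. In LPS+DHEA+Nb versus LPS, 9 of 9 had a negative fold change (median log2 fold change -0.30), where 49.5% of all genes were negative and the median was 0.00. The count includes Gfra1, at -0.07 and without a direction, and ran from 7 to 9 over the alternatives. With counts divided by 4, Nanos3 was not tested and the count was 8 of 8. Of the 9 intervals, only that of Dmrt1 excluded 0. Nanos2, outside the 9, went the other way without a filter on low counts. It was at 2.18 against LPS and 2.34 against LPS+DHEA, from counts of at most 32. The 6 genes negative under every alternative were Zbtb16, Id4, Stra8, Sall4, Lin28a and Dmrt1. Against LPS+DHEA, 8 of 9 were negative in LPS+DHEA+Nb (median -0.23), where 50.5% of all genes were, and 6 of 9 without both libraries low in Gfra1. These comparisons share the LPS+DHEA+Nb libraries. The genes were also measured in the same libraries and are not independent draws, so the shares of all genes do not test these counts. LPS versus CTRL gave 6 positive and 3 negative (median 0.13), and LPS+DHEA versus LPS gave 5 positive and 4 negative (median 0.04).

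Genes whose libraries did not overlap between 2 groups were also counted among the 9. In LPS+DHEA+Nb versus LPS there were 4 lower genes, Id4, Stra8, Sall4 and Dmrt1, where 18.6% of all genes were lower in this way. There were 4 in LPS+DHEA+Nb versus LPS+DHEA that were lower, Id4, Kit, Stra8 and Dmrt1, against 17.1% of all genes. In LPS versus CTRL 3 genes were higher, Id4, Stra8 and Dmrt1, against 18.9%. Gfra1 was lower in this sense, against 18.1%, although its fold change was -0.09 without LPS replicate 1. In LPS+DHEA versus LPS Stra8 was higher, against 16.1%, and Lin28a and Dmrt1 were lower, against 15.7%.

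The other genes of the pathway were followed by fixed lists. Of 23 further genes of undifferentiated spermatogonia, 21 were tested, and none was called in any comparison. The median log2 fold change was -0.12 in LPS+DHEA+Nb versus LPS+DHEA, -0.03 in LPS+DHEA+Nb versus LPS, -0.12 in LPS+DHEA versus LPS and -0.06 in LPS versus CTRL. The 3 with the smallest p over the 4 groups, none of which passed, were Tspan8, a cell surface tetraspanin of stem cells, Upp1, a uridine phosphorylase, and Neurog3, a factor of progenitors that leave the stem cell state. Tspan8 had 3.98 and 3.09 CPM in LPS+DHEA+Nb, 3.27 and 3.96 in LPS+DHEA, 5.97 and 4.17 in LPS, and 3.21 and 3.00 in CTRL (adjusted p = 0.981 over the 4 groups). Upp1 had a log2 fold change of 1.24 in LPS versus CTRL (adjusted p = 0.647). Neurog3 had 8 and 9 counts in LPS+DHEA+Nb, 40 and 13 in LPS+DHEA, 53 and 8 in LPS, and 4 and 8 in CTRL. Replicate 1 of LPS was the highest of the 8 and replicate 2 lay at the level of CTRL.

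Of 18 further genes of differentiating spermatogonia and of the entry to meiosis, 17 were matched and tested, and none was called. Their medians lay between -0.01 and 0.01 in the 4 comparisons. Dnmt3a, a DNA methyltransferase, had the smallest p, at 18.1 and 16.9 CPM in LPS+DHEA+Nb, 11.1 and 10.3 in LPS+DHEA, 17.2 and 18.9 in LPS, and 17.3 and 9.66 in CTRL. Both LPS+DHEA libraries lay below both LPS libraries, as for 15.7% of all genes (log2 fold change -0.76, SE 0.23, adjusted p = 1). The CTRL libraries differed widely from each other. Prdm9, which sets the sites of meiotic recombination, and Ccna2, a cyclin of S phase and mitosis, came next, with adjusted p = 1 over the 4 groups for both. Prdm9 averaged 4.54 ± 0.431 CPM in LPS+DHEA+Nb and 5.55 ± 1.26 in LPS (SD, n = 2), and the libraries overlapped. Ccna2 averaged 5.98 ± 0.734 CPM in LPS+DHEA+Nb and 7.43 ± 1.23 in LPS (SD, n = 2). Its libraries did not overlap, and 18.6% of all genes were lower in this way.

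Retinoic acid drives the switch that Kit and Stra8 mark, and 20 genes of its synthesis, breakdown and receptors were tested. None was called. Cyp26b1, the enzyme that breaks down retinoic acid in the tubule wall, had 29.6 and 30.6 CPM in LPS+DHEA+Nb, 24.8 and 23.0 in LPS+DHEA, 19.7 and 26.8 in LPS, and 36.3 and 36.2 in CTRL. All 6 libraries of LPS-treated mice lay below both CTRL libraries, and the share of all genes with this order was not computed. The log2 fold change in LPS versus CTRL was -0.64 (SE 0.14, 95% interval -0.94 to -0.34, adjusted p = 0.124).

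Rxrb, a retinoid X receptor, and Stra6, a receptor that takes up retinol, had the next smallest p. Rxrb had 19.4 ± 3.40 CPM in LPS+DHEA+Nb and 26.3 ± 2.36 in LPS (SD, n = 2; log2 fold change -0.44, adjusted p = 0.606). Stra6 had 4.56 ± 0.160 CPM in LPS+DHEA+Nb and 6.22 ± 0.846 in LPS+DHEA (SD, n = 2; log2 fold change -0.45, adjusted p = 1). Of the 20 genes, 18 had a negative fold change in LPS+DHEA+Nb versus LPS+DHEA (median -0.12), where 50.5% of all genes were negative, and 15 in LPS+DHEA+Nb versus LPS (median -0.18).

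Of 22 niche ligands and receptors, 21 were tested and none was called, Gdnf and Kitl (stem cell factor, the ligand of KIT) included. Gdnf had 74 and 72 counts in LPS+DHEA+Nb, 88 and 70 in LPS+DHEA, 60 and 90 in LPS, and 74 and 41 in CTRL. Kitl had 1128 and 1082 counts in LPS+DHEA+Nb, 1107 and 1133 in LPS+DHEA, 968 and 1077 in LPS, and 1344 and 1148 in CTRL. Both LPS libraries of Kitl lay below both CTRL libraries, by counts, where 18.1% of all genes did so by CPM.

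Fgf2, a growth factor that supports stem cell renewal in culture, had the smallest p in the list. It had 0.126 and 0.331 CPM in LPS+DHEA+Nb, 2.77 and 0.638 in LPS+DHEA, 3.04 and 3.34 in LPS, and 0.384 and 0.234 in CTRL. Its log2 fold change was 3.36 in LPS versus CTRL (SE 0.70, adjusted p = 0.157) and -3.79 in LPS+DHEA+Nb versus LPS (SE 0.73, adjusted p = 0.154). Csf1, which acts on macrophages and spermatogonia, had 4.61 and 6.15 CPM in LPS+DHEA+Nb, 8.64 and 7.75 in LPS+DHEA, 8.36 and 7.98 in LPS, and 4.89 and 6.02 in CTRL (adjusted p = 0.544 over the 4 groups). The gene of its receptor, Csf1r, averaged 5.79 ± 1.29 CPM for LPS, 10.8 ± 1.47 for CTRL (SD, n = 2; log2 fold change -0.90, adjusted p = 0.19).

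**Figure D4:**
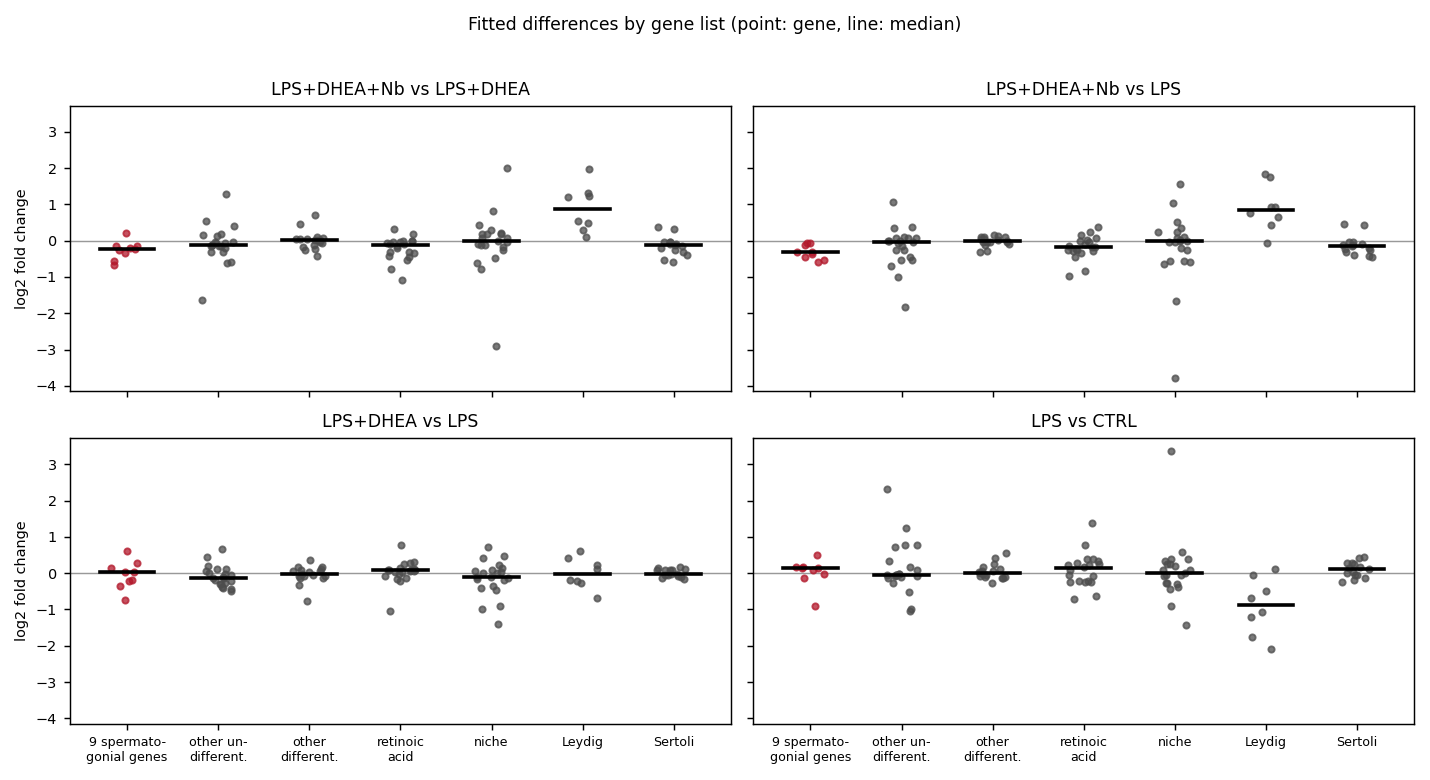
Fitted log2 fold changes of the tested genes of 7 lists in 4 comparisons, with 1 point per gene and a line at the median of each list. The points of the 9 spermatogonial genes lie below 0 in LPS+DHEA+Nb versus LPS, with that of Gfra1 at -0.07, and the Leydig list has medians of 0.84 and 0.87 in the comparisons with LPS+DHEA+Nb and of -0.88 in LPS versus CTRL.

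Markers of later germ cells and of peritubular cells were followed for the makeup of the samples. The 10 meiotic markers had a sum of 1501.7 to 1551.2 CPM in LPS+DHEA+Nb, 1475.6 to 1491.5 in LPS+DHEA, 1393.0 to 1394.6 in LPS, and 1389.1 to 1533.6 in CTRL. Between LPS+DHEA+Nb and LPS, 9 of the 10 meiotic markers had a positive fold change (median 0.20), against 50.4% of all genes. In LPS versus CTRL 8 of the 10 had a negative one (median -0.19), against 50.3% of all genes. None was called. Acta2, the smooth muscle actin of peritubular cells, rose in LPS to 98.3 ± 6.61 CPM, against 46.0 ± 0.964 in CTRL (SD, n = 2; log2 fold change 1.10, adjusted p = 0.000737). It fell in LPS+DHEA+Nb to 52.1 ± 1.35 CPM, against the same LPS level (SD, n = 2; log2 fold change -0.92, adjusted p = 0.00443). Acta2 was the only one of 7 peritubular markers called, but most of the others moved the same way. In LPS versus CTRL 6 of the 7 had a positive fold change (median 0.51) and 1 a negative one, against 49.6% positive of all genes. In LPS+DHEA+Nb versus LPS all 7 had a negative one (median -0.49), against 49.5% of all genes. In each of these comparisons 6 of the 7 had an unadjusted p under 0.05 by the edgeR test. Cd163, a scavenger receptor of macrophages, fell in LPS+DHEA+Nb to 0.315 ± 0.156 CPM, against 2.46 ± 0.646 in LPS (SD, n = 2; log2 fold change -2.95, adjusted p = 0.0318). It was the only one of 9 macrophage markers called in the 4 comparisons. In the same comparison 5 of the 9 had a positive fold change (median 0.23), against 50.4% of all genes. The 9 summed to 101.3 to 105.5 CPM in LPS+DHEA+Nb, 90.2 to 98.9 in LPS+DHEA, 89.7 to 97.9 in LPS, and 89.6 to 98.5 in CTRL. The 9 spermatid markers summed to 17565.1 to 17889.9 CPM in LPS+DHEA+Nb, 16165.7 to 17786.4 in LPS+DHEA, 16191.9 to 16905.0 in LPS, and 18473.7 to 19068.3 in CTRL. In LPS versus CTRL 6 of these 9 had a negative fold change (median -0.15). No spermatid, mast cell or endothelial marker was called in any comparison. The part of such shifts in the levels of the 10 genes was not tested.

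The genes whose levels over the 8 libraries were most like those of Dmrt1, Stra8 and Id4, the 3 with the smallest p over the 4 groups, were sought among 14242 genes by Pearson's correlation of log2 CPM. For Dmrt1 they were Myadm (r = 0.972), Zcchc3 (0.969) and Cnot1 (0.967). For Stra8 they were Hmgxb3 (0.956), Dhx9 (0.949) and Endou (0.947), and for Id4 they were Adat3 (0.984), Lonp1 (0.960) and Tulp3 (0.954). With 8 libraries that share their scaling, 65 genes reached at least 0.9 with Dmrt1, 21 with Stra8 and 32 with Id4.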

How the data were processed

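RNA-seq libraries of mouse testis were made with a KAPA stranded kit, per the labels' protocols. HISAT, without a version, featureCounts 1.5.0-p3 and the build GRCm38 are named per the submitters' processing notes. The authors deposited, for each library, estimated counts per Ensembl gene, unscaled as judged from the values. They are whole numbers and were used without rounding. Multiples of 4 made up 33.5% of values from 1 to 40 and 25.0% from 1000 to 10000. Were each fragment counted 4 times, depth would be 15.3 to 16.1 M.

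In R 4.3.3, edgeR 4.0.16 removed low genes (filterByExpr, count 10, total 15), scaled by TMM (factors 0.985 to 1.015) and fitted 1 mean per group (glmQLFit with robust estimation, glmQLFTest), which left 4 residual degrees of freedom. The design had been written for raw counts. The SE is the log2 fold change divided by the square root of F. Positions and exon lengths are from GENCODE M21 (GRCm38). The steps were tested on simulated data. Alternatives were DESeq2 1.42.0, DESeq2 size factors, no filter (at least 1 count), the replicate number as a block, counts divided by 4, each library left out, and, chosen after seeing the data, both libraries with low Gfra1 left out. Meiosin had no matching symbol. The 10 genes and the lists were chosen with earlier results of these data known. All 10 genes are named. Other genes are named when called, by the 3 smallest p over the 4 groups in each pathway list, by level in marker lists, or by likeness to Dmrt1, Stra8 and Id4. Ret, Etv5, Gdnf, Kitl, Fcer1a, Ms4a2 and the islet genes fall outside this rule and were chosen after their values were seen.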

Additional observations from a re-analysis of the deposited data

How the results depend on the processing

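The count of 0 called among the 9 spermatogonial genes held in all 5 tests under each of the 14 alternatives other than DESeq2. With counts divided by 4, only 8 of the 9 were tested, without Nanos3. DESeq2 called 1 (Dmrt1) in LPS versus CTRL, in LPS+DHEA+Nb versus LPS and in the test over 4 groups. The counts over all genes were less stable. They were 78 in LPS versus CTRL, 5 in LPS+DHEA versus LPS, 45 in LPS+DHEA+Nb versus LPS, 23 in LPS+DHEA+Nb versus LPS+DHEA and 63 over the 4 groups. In that order they became 283, 35, 207, 113 and 365 with DESeq2, 140, 10, 87, 42 and 155 with no filter on low counts, and 141, 50, 101, 70 and 172 without both low-Gfra1 libraries. Leaving out single libraries gave 66 to 118, 10 to 24, 43 to 88, 16 to 64 and 65 to 131 genes, and 0 of the 9 genes each time. The causes were not tested. Of the results of single spermatogonial genes under the alternatives, 498 stayed not called, as in the main fit, and 2 passed the threshold. This count leaves out the sign of the fold change, which was less stable. The sign differed from the main fit in up to 4 alternatives for a gene, as for Lin28a in LPS versus CTRL. Over all genes tested, deviations of same-numbered libraries correlated at -0.033 to 0.031 between groups. This measure would not show a link confined to few genes. Gm49291 had counts in replicate 1 of every group and none in replicate 2. With the replicate block 62, 5, 47, 16 and 51 genes were called, and 0 of the 9. With 2 libraries per group and counts of at most 36, Nanos2 and Nanos3 allow no statement on moderate differences.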
